A study of Mus musculus with 47 samples.

Results

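Genes of protein folding in the endoplasmic reticulum (ER) and of the unfolded protein response were followed in the mouse hippocampus. The members were named in a list of 45 genes, chosen for what their proteins do but with earlier results of these data known. Of these, 44 had a row among the 35486 genes of the count table. Ddit3, which encodes the transcription factor CHOP, was on the list, and only its promoter was searched here, not its level. The count filter was passed by 43 members and by 17778 genes in all. Trib3, a pseudokinase gene under ATF4 and CHOP, did not pass it, with 284 reads over all libraries.

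The study asked whether mouse platelet factor 4 (mPF4), a chemokine that platelets release, changes the brain of young and aging mice. Hippocampal RNA of 47 male C57BL/6J mice, 1 library per mouse, fell into 4 groups. The vehicle groups were Young Veh (13 mice, 3.75 to 5.26 months old) and Aging Veh (12 mice, 17.47 to 19.97 months), and the groups given mouse PF4 were Young mPF4 (12 mice, 4.08 to 5.03 months) and Aging mPF4 (10 mice, 17.4 to 20.23 months). Injections were intraperitoneal and daily, the mice had been through behavioural tests, and no group carries a labelled engineered allele. In whole hippocampus, fewer cells of a type and less RNA per cell cannot be told apart.

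Secreted and membrane proteins enter the ER through the Sec61 translocon and fold there with the help of Hsp70 and Hsp90 chaperones, lectin chaperones and protein disulfide isomerases, and proteins that fail are returned to the cytosol for degradation. When unfolded proteins build up, the sensors IRE1 (Ern1), PERK (Eif2ak3) and ATF6 release the chaperone BiP (Hspa5) and start the unfolded protein response. IRE1 splices the mRNA of Xbp1, PERK raises the translation of Atf4, and ATF6 is cleaved into a transcription factor. Xbp1 splicing, Atf4 translation and ATF6 cleavage are not seen in counts of reads per gene, so these genes are described here by their mRNA level alone.

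Promoters of many folding genes hold an ER stress response element (ERSE), whose CCAAT part is bound by NF-Y and whose CCACG part is bound by ATF6 and XBP1. In the 250 bases before the transcription start, taken from RefSeq (GRCm38.p6) for 38 members, the full element, CCAAT and CCACG with 9 free bases between them on either strand, was found in 9 members (Pdia6, Hspa5, Hsp90b1, Dnajc3, Calr, Canx, Creld2, Syvn1 and Derl3), against 0.13% of all 27025 genes with such a window. A form with the last G free, which includes the full element and was searched after it, added Pdia3, Pdia4 and Derl2, against 0.366% of all genes. Sites of 8 members that the results turn on are given because they show how near to the consensus each lies, with the letters fixed by the element in capitals:
Hspa5: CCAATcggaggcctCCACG
Creld2: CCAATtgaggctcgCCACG
Pdia6: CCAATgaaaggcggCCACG
Dnajc3: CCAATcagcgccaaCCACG
Canx: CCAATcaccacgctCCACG
Pdia4: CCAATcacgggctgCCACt
Pdia3: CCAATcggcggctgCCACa
Derl2: CCAATccctgccggCCACa
The site of Hspa5 lay 65 to 47 bases before the start and that of Creld2 126 to 108 bases, on the opposite strand. In Pdia4 it lay 108 to 90 bases before the start, also on the opposite strand. Other elements were rarer among members: ERSE-II (ATTGG and CCACG with 1 free base between them, in 0.037% of all genes) was found in Herpud1, the UPRE (TGACGTGG, 0.603%) in Txndc5, and the ATF4 element CARE (TGATGNAA, 3.91%) in Txndc5, Herpud1, Chac1 and Asns. These are matches of letters in a window, not measured binding sites.

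Whole promoter windows are shown for Pdia4, called lower with age in vehicle mice by edgeR, and for Creld2, called by DESeq2 but not by edgeR. That of Hspa5, the reference gene of the response, is added. Of the other members called with age, Dnajb11 (DESeq2) held none of these elements in its window, and Hyou1 (edgeR) had no window. Each window is written 5′ to 3′ on the strand of its gene with the ERSE letters in capitals.
Pdia4 (chr6:47813513-47813762, minus strand): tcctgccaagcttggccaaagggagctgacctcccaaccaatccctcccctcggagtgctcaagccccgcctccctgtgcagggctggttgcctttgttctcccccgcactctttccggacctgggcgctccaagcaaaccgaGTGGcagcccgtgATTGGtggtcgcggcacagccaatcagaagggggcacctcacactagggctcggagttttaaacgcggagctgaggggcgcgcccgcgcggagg
Creld2 (chr15:88819396-88819645, plus strand): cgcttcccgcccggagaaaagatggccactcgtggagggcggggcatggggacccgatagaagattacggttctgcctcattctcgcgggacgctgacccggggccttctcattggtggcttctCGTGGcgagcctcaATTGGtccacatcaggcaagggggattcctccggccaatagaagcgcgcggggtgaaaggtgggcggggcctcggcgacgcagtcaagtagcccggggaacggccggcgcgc
Hspa5 (chr2:34771840-34772089, plus strand): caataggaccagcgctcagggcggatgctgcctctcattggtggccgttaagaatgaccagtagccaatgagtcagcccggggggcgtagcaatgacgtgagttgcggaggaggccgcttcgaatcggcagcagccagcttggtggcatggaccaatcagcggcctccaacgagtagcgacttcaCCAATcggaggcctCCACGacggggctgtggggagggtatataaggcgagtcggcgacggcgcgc

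Total counts were 2242879 to 21112908 per library, and the 8 shallowest libraries came from all groups (1 Young Veh, 4 Aging Veh, 2 Young mPF4 and 1 Aging mPF4). Neuronal markers were high in every library, with the 6 genes summing to 5067 CPM (counts-per-million, scaled to TMM-adjusted library sizes) or more. Choroid plexus, a secretory epithelium next to the hippocampus, entered the dissections unevenly: its 10 marker genes summed to 12.0 to 4259 CPM in Young Veh and 15.1 to 4259 CPM in Aging Veh, with medians of 1943 and 47.1 CPM, and Kcne2, Otx2, Aqp1 and Slc4a5 were at 0 in at least 1 library each. Astrocyte markers (4 genes) summed to 2152 to 2438 CPM in Young Veh and 2377 to 2824 CPM in Aging Veh, and microglial markers (4 genes) to 145 to 188 and 155 to 217 CPM. A length index, the mean level of genes with long transcripts minus that of genes with short ones on a log2 scale, set apart Young Veh replicate 4 (-0.35), Aging mPF4 replicate 8 (-0.23) and Young mPF4 replicate 4 (-0.16). Library numbers in the sample titles ran 1 to 12 in Aging Veh, 13 to 23 in Aging mPF4 and 24 to 48 in the young groups, so that any effect of library order cannot be told apart from age, nor from mPF4 in aging mice.

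Levels of the members in the hippocampus spanned a wide range. Per kilobase of exon, Canx, the membrane lectin calnexin, stood highest with a mean of 155 CPM, followed by Hspa5 (78.3 CPM), the Hsp70 chaperone BiP, and Hsp90b1 (69.1 CPM), the Hsp90 chaperone GRP94. Lowest were Trib3 (0.269 CPM), Derl3 (0.343 CPM), a derlin of the degradation channel, and Pdia5 (0.629 CPM), a disulfide isomerase. Among the sensors, Atf6 stood at 7.85 CPM per kilobase, Eif2ak3 at 4.54 and Ern1 at 0.936, against 35.8 for Xbp1 and 18.7 for Atf4. The within-group SD of log2 CPM had a median of 0.152 over the members tested, against 0.214 over all genes tested. The 2 sets were not matched for level, and Canx (0.226), Hspa5 (0.257) and Ssr1 (0.266) lay above the median of all genes. Hyou1 was among the more variable, with an SD of 0.374.

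**Figure D1:**
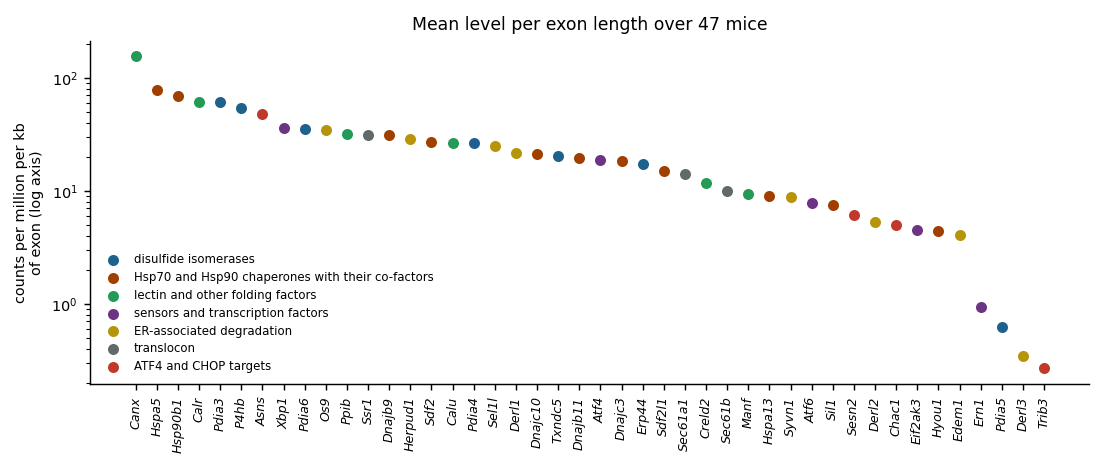
Mean level of each of the 44 members over 47 mice in CPM per kilobase of exon, on a log axis, ordered by level and coloured by role. Canx stands highest at 155 and Trib3 lowest at 0.269, and 40 of the 44 lie above Ern1, Pdia5, Derl3 and Trib3.

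The first comparison, Aging Veh against Young Veh, gave the effect of age in vehicle-treated mice. Pdia4 and Hyou1 were lower in aging mice and no member was higher, so that 2 of the 43 members tested were called by the edgeR quasi-likelihood test with Benjamini-Hochberg adjustment over all genes, against 2.77% of all genes, 0.607% called lower and 2.16% called higher. The direction was shared widely, with 36 of 43 members below 0 (83.7%, against 54.7% of all genes tested). The median log2 fold change was -0.082 over members and -0.013 over all genes. Without the 2 Young Veh mice farthest from the median Hspa5 level, that over members was -0.051. Those 2 mice held the highest Hspa5 of their group, so leaving them out was bound to lower Hspa5 in Young Veh and is no independent check. An unadjusted p under 0.05 was reached by 15 members, 13 of them lower, against 15.2% of all genes. DESeq2 called 4 members, all lower, against 3.58% of all genes and 0.821% called lower. The median was -0.065 over the 9 members with the full ERSE and -0.081 over the 27 with a window and without it. With the last letter free it was -0.095 over 12 members with the element and -0.068 over 24 without.

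Pdia4 encodes ERp72, a disulfide isomerase that also binds BiP complexes. Its gene lies on chromosome 6 (GRCm38, 47796141 to 47813430, minus strand), and its exons overlap those of no other annotated gene. Pdia4 was at 54.2, 69.1 and 90.2 CPM (lowest, median and highest mouse) in Young Veh and at 35.7, 48.03 and 65.0 CPM in Aging Veh. With mPF4 it was at 61.5, 70.0 and 83.0 CPM in young and 55.6, 59.9 and 69.8 CPM in aging mice. Aging Veh mice lay lowest: 9 of 12 were below every Young Veh mouse and all 12 were below the Young Veh median. The mean was 49.3 ± 8.25 CPM (SD, n = 12) in Aging Veh and 71.2 ± 11.9 CPM (SD, n = 13) in Young Veh, a log2 fold change of -0.52 (SE 0.075, edgeR adjusted p = 1.1e-05), which ranked Pdia4 as number 12 of all genes by p.

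Hyou1 encodes GRP170, a large Hsp70 relative that exchanges the nucleotide of BiP (chromosome 9, 44379490 to 44392369, plus strand). Its levels were 19.02, 36.3 and 43.2 CPM in Young Veh and 17.5, 24.1 and 30.1 CPM in Aging Veh. With mPF4 they were 19.1, 37.6 and 47.3 CPM in young and 12.8, 31.4 and 46.8 CPM in aging mice. All 12 Aging Veh mice lay below the Young Veh median, but the vehicle groups overlapped, and 1 Aging Veh mouse was below every Young Veh mouse. The Young Veh mouse at 19.02 CPM was replicate 4, one of the 3 libraries of lowest length index, and Aging mPF4 replicate 8, another of them, held the 12.8 CPM. The log2 fold change of Hyou1 with age was -0.50 (SE 0.136, edgeR adjusted p = 0.030), and -0.55 (SE 0.105, edgeR adjusted p = 0.00066) without those 3 libraries. The call was lost in 8 of the 25 fits that left out 1 library and without the 8 shallowest libraries (-0.47, edgeR adjusted p = 0.14).

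**Figure D2:**
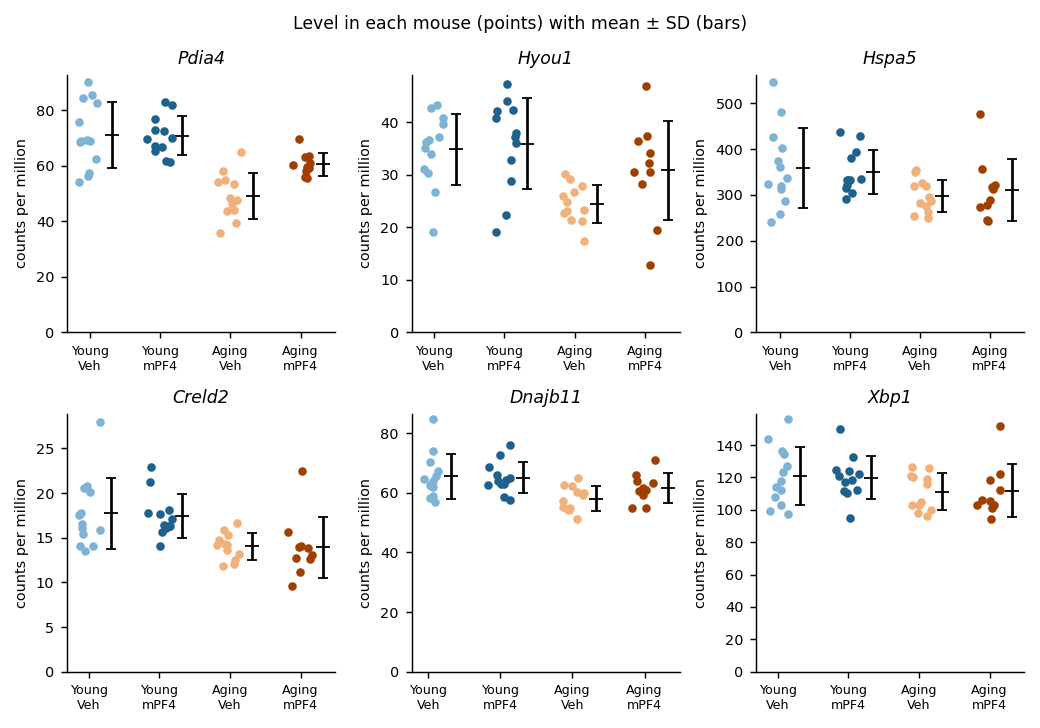
Levels of 6 members, in CPM, in each mouse (points) by group, with mean and SD beside them, all axes starting at 0. Pdia4 in Aging Veh (35.7 to 65.0) lies mostly below Young Veh (54.2 to 90.2), whereas the groups overlap widely for Hspa5 and Xbp1.

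In the Hsp70 and Hsp90 group all 11 members were below 0 with age in vehicle mice, although Hyou1 alone was called by edgeR. Dnajb11, the soluble J-domain partner of BiP, was at 56.9, 63.9 and 84.7 CPM in Young Veh and 51.1, 58.2 and 65.0 CPM in Aging Veh. Its log2 fold change of -0.17 (SE 0.052) was called by DESeq2 (adjusted p = 0.0476) and not by edgeR (adjusted p = 0.0545). Hspa5 itself was at 240.3, 336 and 548 CPM in Young Veh and 250.005, 291 and 354 CPM in Aging Veh. The group ranges overlapped, and the difference of -0.27 (SE 0.099, edgeR adjusted p = 0.15) was not called. Without the 2 Young Veh mice farthest from the median Hspa5 level it was -0.14, and Dnajb11 -0.11. Those 2 mice held the highest Hspa5 of Young Veh (log2 CPM 9.10 and 8.91), so a smaller Hspa5 difference follows from how they were chosen. Sdf2l1, a partner of the J-domain proteins, gave -0.34 (SE 0.127, edgeR adjusted p = 0.14), or -0.15 without those 2 mice. Sil1, the other nucleotide exchange factor of BiP, gave -0.17 (SE 0.074, edgeR adjusted p = 0.22). Among the rest of the group log2 fold changes ranged from -0.046 for Hsp90b1 to -0.090 for Hspa13.

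Of the 6 disulfide isomerases other than Pdia4 none was called. Pdia6, which also acts on the sensor IRE1, gave -0.12 (SE 0.055, edgeR adjusted p = 0.28), or -0.062 without the 2 Young Veh mice farthest from the median Hspa5 level. Pdia3, the partner of the lectins calnexin and calreticulin, gave -0.089, and P4hb, the founding isomerase PDI, -0.071. Pdia5 (0.054) and Erp44 (0.020) lay above 0 with SEs larger than the values.

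Of the lectin and other folding factors none of 6 was called by edgeR. Creld2, an ER stress-induced factor with isomerase activity, was at 13.5, 16.6 and 27.96 CPM in Young Veh and 11.9, 14.2 and 16.7 CPM in Aging Veh. With 4 of 12 Aging Veh mice below every Young Veh mouse, its log2 fold change of -0.33 (SE 0.101) was called by DESeq2 (adjusted p = 0.0422) and not by edgeR (adjusted p = 0.0568), and it was -0.22 without the 2 Young Veh mice farthest from the median Hspa5 level. Manf, a secreted ER factor that protects neurons, gave -0.27 (SE 0.087, edgeR adjusted p = 0.082), but 326 of its exon bases overlap Rbm15b on the same strand and Dcaf1 and 4930524O07Rik on the other, and the libraries do not mark strand. The prolyl isomerase Ppib gave -0.083 (SE 0.030, edgeR adjusted p = 0.13), with 825 of its 3305 exon bases overlapping Snx22 on the other strand. Smaller numbers of exon bases overlapped genes on the other strand in Sec61a1 (549), Txndc5 (535), Eif2ak3 (485), Calu (397), Sdf2 (242) and Derl2 (231). Canx lay above 0 at 0.092 (SE 0.091).

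Sensors and transcription factors included 3 members below 0 and 2 above, none called. Atf6 was at 51.2, 71.6 and 78.6 CPM in Young Veh and 66.5, 79.4 and 92.9 CPM in Aging Veh, a log2 fold change of 0.16 (SE 0.058, edgeR adjusted p = 0.12), and 6 of the 12 aging mice exceeded the highest Young Veh value. Ern1 gave 0.21 (SE 0.104, edgeR adjusted p = 0.33), Eif2ak3 -0.082 (SE 0.061), Xbp1 -0.12 (SE 0.070) and Atf4 -0.092 (SE 0.055). Without the same 2 Young Veh mice Xbp1 gave -0.053.

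Degradation, translocon and ATF4 target genes held no call by either tool. In the degradation group, the channel protein Derl1 gave -0.10 (SE 0.042, edgeR adjusted p = 0.21), Derl2 -0.10 (SE 0.084) and the ubiquitin-like scaffold Herpud1 -0.14 (SE 0.092). Derl3, with 351 reads over all libraries, gave -0.58 (SE 0.301, edgeR adjusted p = 0.35), and 3 libraries, all Aging Veh, held no read of it. Sec61a1, the pore of the translocon, gave -0.078 (SE 0.040, edgeR adjusted p = 0.35). The ATF4 targets Chac1 (-0.16, SE 0.091), Asns (-0.095, SE 0.062) and Sesn2 (-0.011, SE 0.060) lay below 0.

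The second comparison gave the effect of age in mPF4-treated mice and shares no mouse with the first. None of the 43 members was called in Aging mPF4 against Young mPF4 by edgeR or DESeq2, where edgeR called 0.332% and DESeq2 0.523% of all genes, and 5 members reached an unadjusted p under 0.05 (8.27% of all genes). The median was -0.045 over members and 0.0041 over all genes. With the choroid plexus score described below in the fit, that over members was -0.029. Of the 43 members 32 lay below 0 (48.3% of all genes). In the Hsp70 and Hsp90 group 7 of 11 did, with a median of -0.028. Creld2 was at 14.03, 16.8 and 22.9 CPM in Young mPF4 and 9.64, 13.5 and 22.4 CPM in Aging mPF4, and 7 of 10 Aging mPF4 mice were below every Young mPF4 mouse. Its log2 fold change was -0.32 (SE 0.107, edgeR adjusted p = 0.26). Without the 3 libraries of lowest length index, which include the Aging mPF4 mouse at 22.4 CPM, the change was -0.39 (SE 0.084, edgeR adjusted p = 0.011), and in vehicle mice Creld2 then gave -0.25 (SE 0.076, edgeR adjusted p = 0.045). Creld2 was thus called in both age comparisons once these 3 libraries were left out, a choice made after seeing the data.

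Pdia4 gave a log2 fold change of -0.22 (SE 0.079, edgeR adjusted p = 0.34) in mPF4 mice, and 7 of 10 Aging mPF4 mice were below every Young mPF4 mouse. Across the remaining roles the smallest p belonged to Dnajc3 (-0.13), an inhibitor of PERK, in the chaperone group, to Atf4 (-0.084) among the sensors and factors, to Syvn1 (-0.17, SE 0.063, edgeR adjusted p = 0.36), the ubiquitin ligase HRD1, in the degradation group, to Sec61a1 (-0.11, SE 0.043) in the translocon and to Sesn2 (-0.17, SE 0.065) among the ATF4 targets. Hyou1 gave -0.19 (SE 0.143) and Hspa5 -0.17 (SE 0.106) in mPF4 mice, which without Aging mPF4 replicate 8 became -0.095 and -0.26, neither called. With the choroid plexus score in the fit Hspa5 gave -0.10, also not called.

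**Figure D3:**
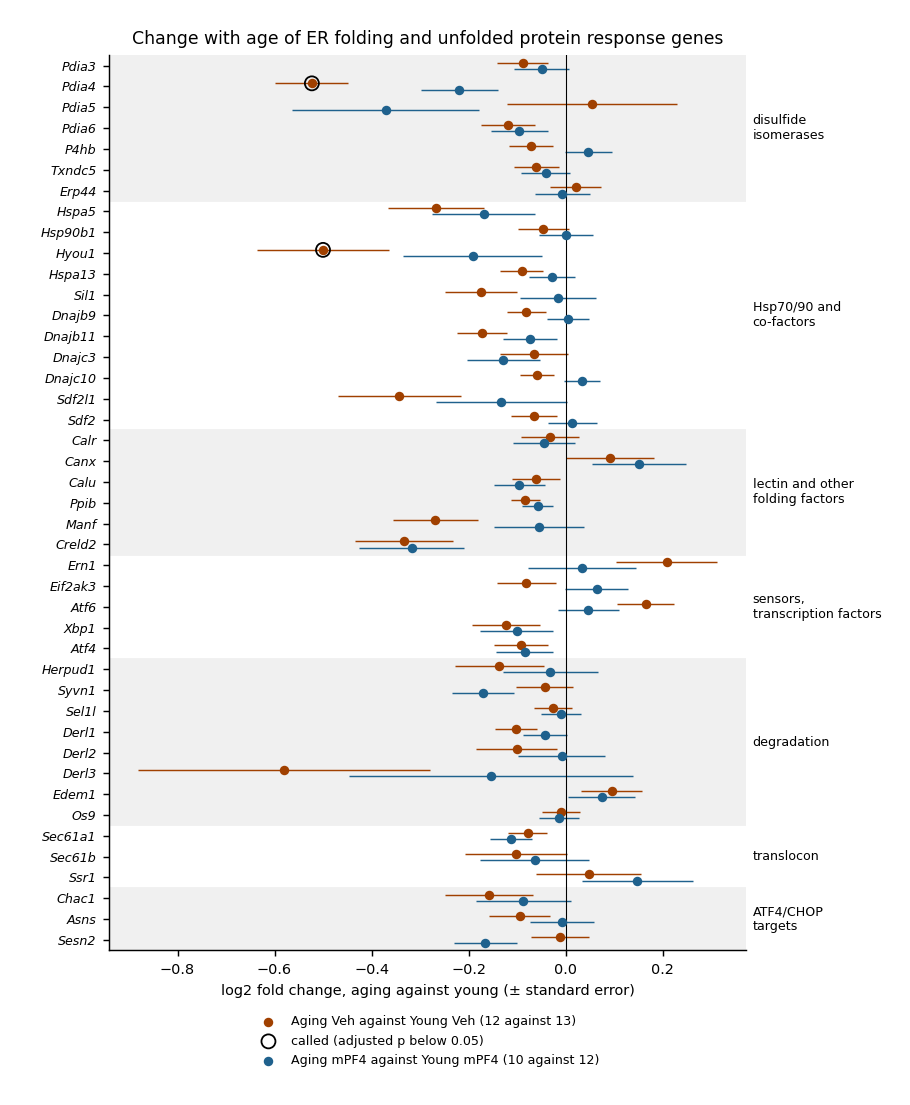
Log2 fold change with age and its standard error for the 43 members tested, by role, in vehicle mice (brown) and mPF4 mice (blue), with the 2 calls circled. Pdia4 (-0.52) and Hyou1 (-0.50) are the 2 calls, Derl3 lies further left (-0.58) with an SE of 0.301, and most points of both comparisons lie left of 0.

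The third comparison asked whether mPF4 changed these genes in aging mice. No member was called in Aging mPF4 against Aging Veh by edgeR or DESeq2, where edgeR called 0.0337% of all genes and DESeq2 0.129%. An unadjusted p under 0.05 was reached by 5 members (6.2% of all genes). Pdia4 had the smallest p of the members. At 55.6 to 69.8 CPM, no Aging mPF4 mouse lay below the lowest Young Veh mouse, and the Aging Veh median of 48.03 CPM lay below every Aging mPF4 mouse. The difference was 0.30 (SE 0.080, unadjusted p = 0.00042 by the edgeR fit over all genes), and it failed the correction (edgeR adjusted p = 0.21, DESeq2 adjusted p = 0.097). Hyou1 gave 0.34 (SE 0.146, edgeR adjusted p = 0.72), with 7 of 10 Aging mPF4 mice above and 1 below every Aging Veh mouse.

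Other members with an unadjusted p under 0.05 in aging mice were the J-domain reductase Dnajc10 (0.089, SE 0.037), P4hb (0.11, SE 0.048) and Atf6 (-0.13, SE 0.063), with edgeR adjusted p of 0.696, 0.755 and 0.792. Manf (0.12, SE 0.094), Derl3 (0.62, SE 0.324), Sec61a1 (-0.054, SE 0.043) and Sesn2 (-0.091, SE 0.065) had the smallest p of their roles. Without Aging mPF4 replicate 8 Sec61a1 gave -0.023 and Sesn2 -0.058. Hspa5 (0.064, SE 0.106), Xbp1 (0.011, SE 0.075) and Atf4 (-0.0046, SE 0.059) were near 0, and their signs turned under other settings. The 95% interval for Hspa5 ran from -0.15 to 0.28.

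In young mice no member reached even an unadjusted p under 0.05 in Young mPF4 against Young Veh, where 1.2% of all genes did and 0% was called by either tool. Member log2 fold changes ranged from -0.098 for Manf to 0.19 for Derl3. Their median was -0.011, against -0.0060 over all genes, and 28 of 43 lay below 0 (65.1%, against 54.3% of all genes). Pdia4 differed by -0.00016, with an SE of 0.074 and a 95% interval from -0.15 to 0.15. The smallest p of each role belonged to Erp44 (0.022), Hspa13 (-0.052), Manf (-0.098), Ern1 (0.12), Edem1 (-0.085), Ssr1 (-0.055) and Sesn2 (0.063), all with an edgeR adjusted p of 1.

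An interaction term tested whether the response to mPF4 differed between young and aging mice, or equally the age effect between treatments. No member and no gene was called by edgeR or DESeq2, and 3.98% of all genes had an unadjusted p under 0.05. Pdia4 was the 1 member among them, with 0.30 (SE 0.109, unadjusted p = 0.0075 by the edgeR fit, adjusted p = 1). That Pdia4 was called with age in vehicle mice and not in mPF4 mice is therefore not shown to be a difference between them.

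Choroid plexus content was set against each member because it varied between mice. Within groups, the slope on the choroid plexus marker score (the mean log2 CPM of the 10 marker genes) was called for 4 of 43 members, all higher with more choroid plexus, against 8.59% of all genes, 7.06% called higher and 1.54% lower. These were Dnajc3 (0.065 log2 units per unit of score, SE 0.009), Sil1 (0.064, SE 0.010), Pdia4 (0.042, SE 0.012) and P4hb (0.033, SE 0.007), with edgeR adjusted p of 1.2e-07, 1.6e-06, 0.0175 and 0.000445. The count was 2 with the replicate number as a block, where 1315 of all genes were called, and 8 without the 3 libraries of lowest length index, where 1928 were, against 1528 here. The score itself averaged 4.17 in Young Veh and 2.17 in Aging Veh, and 4.30 and 2.48 in the young and aging mPF4 groups. Aging Veh was lower than Young Veh by 2.00, with a permutation p of 0.028 that became 0.24 when adjusted over 12 such tests. Slopes on the score were below 0 in 13 of 43 members (30.2%, against 55.2% of all genes), and in 2 of the 11 in the Hsp70 and Hsp90 group. The part of the score in the direction shared by members with age was not tested. With the score in the fit, the Pdia4 change with age in vehicle mice was -0.44 (SE 0.072, edgeR adjusted p = 0.00015) and that in Aging mPF4 against Aging Veh 0.29 (SE 0.073, edgeR adjusted p = 0.15). Hyou1 was called with it as well (-0.51, SE 0.143, edgeR adjusted p = 0.041). Sil1 with age in vehicle mice went from -0.17 to -0.045 with the score in the fit, and Dnajc3 in mPF4 mice from -0.13 to -0.015. Any part of the higher astrocyte and microglial markers of aging mice in these values was not tested.

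**Figure D4:**
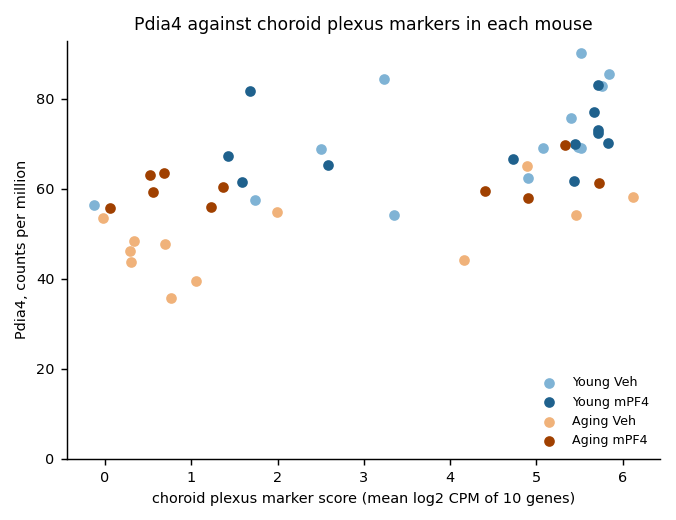
Pdia4 in CPM against the choroid plexus marker score (mean log2 CPM of 10 genes) in each of the 47 mice, coloured by group. At low and at high scores alike, Aging Veh mice (35.7 to 65.0 CPM) tend to lie lowest.

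From mouse to mouse, many members followed Hspa5. Slopes on Hspa5 within groups, in log2 units per doubling of Hspa5, were called for 26 of the 42 other members, 21 higher and 5 lower, in a setting where 38.5% of all genes were called (21.1% higher and 17.4% lower). With the length index in the fit 22 members were called against 24.9% of all genes, and without the 2 mice farthest from the median Hspa5 level (both Young Veh) 21 of 41 against 29.4%. The 3 libraries of lowest length index were also high in Hspa5 (log2 CPM 9.10, 8.90 and 8.74), so leaving them out narrows the range of Hspa5 as well. Without these 3 libraries 8.62% of all genes were called, and 18 of 42 members, all higher. Of these 18, 17 were also called with all mice in the same direction, and the other was Calu (0.24, SE 0.073), an ER calcium-binding protein. Both Hspa5 and the members share the depth of a library, so these slopes describe how levels went together and carry no direction of effect. With log2 total count in the fit 26 members were called (7088 of all genes, against 6848 without it).

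Sdf2l1 had the steepest slope, 1.06 (SE 0.089) with all 47 mice and 0.90 (SE 0.115) without the 3 libraries, with edgeR adjusted p of 3.4e-12 and 1.7e-06. Xbp1, the target of IRE1 splicing, had slopes of 0.59 (SE 0.058) and 0.60 (SE 0.071). Of the 7 disulfide isomerases 6 were called higher with all mice, Pdia4 at 0.51 (SE 0.080), Pdia3 at 0.46 (SE 0.042) and Pdia6 at 0.41 (SE 0.055) among them, and without the 3 libraries these gave 0.63, 0.43 and 0.48, and 5 of the 7 were called. Dnajc3 (0.50 and 0.55), Derl2 (0.65 and 0.54) and Creld2 (0.72 and 0.49) were called in both settings. Herpud1 (0.65 and 0.41), Dnajb11 (0.37 and 0.30), P4hb (0.31 and 0.32) and the J-domain protein Dnajb9 (0.23 and 0.23) were also called in both. Of the 8 members with the full ERSE besides Hspa5, 5 were called higher with all mice and 1 lower, against 15 higher and 2 lower of the 27 with a window and without it. With the form that leaves the last letter free, 8 of 11 were called higher and 1 lower, against 12 higher and 2 lower of 24.

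Slopes of some members lay nearer 0 without the 3 libraries, a setting that also narrows the range of Hspa5. The slope of Canx was 0.69 with them and 0.33 without, and that of Ssr1, a subunit of the translocon-associated complex, 0.77 and 0.31. Young Veh replicate 4 held 1300 CPM of Canx and 620 CPM of Ssr1, and Aging mPF4 replicate 8 held 1242 and 627 CPM, the highest of their groups. All 5 negative calls ended without them: Hyou1 went from -0.62 (SE 0.183, edgeR adjusted p = 0.0062) to -0.15 (SE 0.183, edgeR adjusted p = 0.66), and Atf6 (-0.25 to -0.098), Syvn1 (-0.25 to -0.095), Sesn2 (-0.23 to -0.13) and Eif2ak3 (-0.21 to -0.11) likewise lost their calls. Of the 21 called higher with all mice, 4 lost their calls, namely Sec61b (0.43 to 0.063), a small subunit of the translocon, Asns (0.30 to 0.069), asparagine synthetase, Erp44 (0.29 to 0.21) and Sdf2 (0.19 to 0.083), a relative of Sdf2l1.

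**Figure D5:**
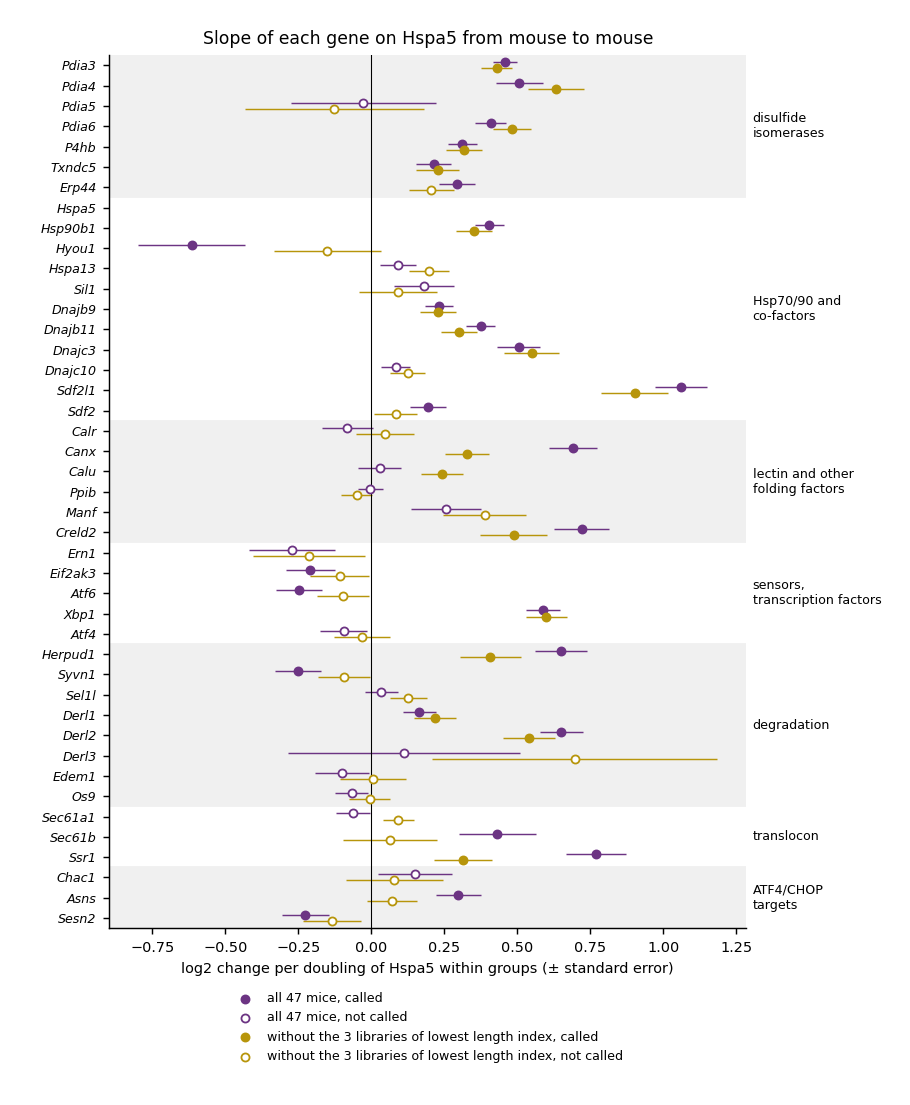
Slope of each member on Hspa5 with its standard error, in log2 units per doubling of Hspa5 within groups, for all 47 mice (purple) and without the 3 libraries of lowest length index (yellow); filled points are called, and Hspa5 itself has no value. The disulfide isomerases stay right of 0 in both settings apart from Pdia5, whereas Hyou1 moves from -0.62 to -0.15.

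Beyond the members, 85 of 86 further listed genes of the same pathway passed the count filter, among them oligosaccharyl transferase, calnexin cycle, signal cleavage and amino acid genes under ATF4. None was called by edgeR or DESeq2 in any of the 5 comparisons between groups. With age in vehicle mice 12 of 85 had an unadjusted p under 0.05 (15.2% of all genes). The smallest belonged to Uggt2, a glucosyltransferase of the calnexin cycle (0.21, SE 0.066, edgeR adjusted p = 0.073). On the slope on Hspa5 with all mice, 34 of the 85 were called higher and 6 lower, against 21.1% and 17.4% of all genes.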

How the data were processed

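Gene-level read counts were deposited by the authors, unnormalized, for 47 hippocampal libraries (Smart-Seq2 cDNA, Nextera XT, unstranded). Per the labels, reads were trimmed with Trim Galore 0.3.7 and aligned with STAR 2.5.3a to GRCm38, while the counting tool is not given in the sources used here. The study left out samples of very low coverage. No row lacked a gene name (0).

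Members and lists were chosen with earlier results of these data known. The quasi-likelihood test of edgeR 4.0.16 (R 4.3.3) was fitted once to the 4 groups, with TMM scaling and filterByExpr, and checked on simulated data. A call is an adjusted p (Benjamini-Hochberg, all genes) below 0.05. DESeq2 1.42.0, which the study's methods name, was the alternative test. CPM used TMM library sizes, and log2 CPM a prior count of 2. Each SE was taken from the fold change and its F statistic, and intervals are 95%. Slopes added the choroid plexus score or the log2 CPM of Hspa5 to the fit. Library measures were compared by a two-sided permutation test (100000 resamples). The length index compared genes whose longest transcript had at least 4594 bases with those of at most 2006 bases (lengths for 99.4% of genes). Overlaps, positions and exon lengths came from GENCODE and promoters from RefSeq. Named genes were those called by either tool in a group comparison or on the Hspa5 slope, the member of smallest p per role in each comparison of 2 groups, 8 fixed genes (Hspa5, Pdia4, Ern1, Eif2ak3, Atf6, Xbp1, Atf4 and Ddit3), the 3 highest and 3 lowest by level per length, and members outside the filter. Others are named for contrast. Nothing says that mice of a group came from separate litters or cages, so p-values measure the spread between these mice. No 2 libraries were alike enough to be 1 sample (highest correlation 0.993).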

Additional observations from a re-analysis of the deposited data

Results flagged for a closer look

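Within the 10 Aging mPF4 mice, 10 of the 43 members had a highest or lowest mouse far from the others, by a gap above 0.466 of the group's range on the log2 scale. Chance marks about 1 in 20 groups in this way. Of these, 8 concerned replicate 8, which has the lowest length index of its group (-0.23). It was highest for Canx (1242 CPM, next mouse 801), Ssr1 (627, next 372), Pdia3 (226, next 199), Derl2 (66.2, next 44.98) and Sec61b (17.7, next 13.5). It was lowest for Calr (127 CPM, next mouse 161), Syvn1 (29.4, next 37.1) and Sec61a1 (73.9, next 85.9). Replicate 11 held the others, with Sil1 at 32.2 CPM (next 26.9) and Sel1l at 181 CPM (next 208), and it had the highest choroid plexus score of its group (5.72). Groups of more than 10 mice were not examined in this way.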

How the results depend on the processing

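Pdia4 was called lower with age in vehicle mice in all 12 other settings (-0.54 to -0.44) and in all 25 fits without 1 library (-0.55 to -0.49). Members called in that comparison numbered 4 with DESeq2 (637 of all genes, against 492 with 2 members in the fit as reported), 4 with a mean count of at least 50 (541), 1 without the 8 shallowest libraries (176), 4 without the 3 libraries of lowest length index (888) and 1 to 5 with each library left out (356 to 593). Hyou1 lost its call without Aging Veh replicate 2, 4, 5, 6 or 8 or Young Veh replicate 2, 3 or 12 (-0.56 to -0.47 over all 25 fits, edgeR adjusted p from 0.0092 to 0.060). In such fits Dnajb11 gained a call without Aging Veh replicate 9, 10 or 12 or Young Veh replicate 1, 6 or 7, Manf without Aging Veh replicate 1 or 9 or Young Veh replicate 7, and Creld2 without Aging Veh replicate 12 or Young Veh replicate 1, 6, 7 or 8, and Manf was also called with the length index (-0.29) or total count (-0.31) in the fit. For Aging mPF4 against Young mPF4, 1 member, Creld2, was called with the length index in the fit (-0.36, with 98 of all genes against 59) and 1 without the 3 libraries of lowest length index (83 of all genes), and 0 to 1 with each library left out (36 to 91 of all genes, Creld2 without Aging mPF4 replicate 8, -0.42). No member was called in the remaining comparisons between groups with any library left out. The choroid plexus slope was called for 2 members with the replicate block (1315 of all genes) and for 8 without the 3 libraries of lowest length index (1928), against 4 (1528) in the fit as reported. With age in vehicle mice and never called there, Dnajb9 gave -0.054 with the choroid plexus score, Eif2ak3 -0.12 and Sdf2l1 -0.21 with the length index, and Chac1 -0.10 with the length index or total count. The causes of these shifts were not tested. Leaving out the 2 libraries farthest from the median Hspa5 or the 3 of lowest length index was chosen after seeing the data.

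Replicate numbers did not pair the mice: correlations of 66 same-number pairs ran from -0.42 to 0.55, with 21 above 0.1. With the replicate block 2 members were called with age in vehicle mice (453 of all genes) and 18 on the Hspa5 slope (4580 of all genes, against 6848 without the block).

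Some values near 0, none called, changed sign. For Aging mPF4 against Aging Veh, Atf4 gave 0.0030 with DESeq2, 0.0065 with the replicate block, 0.021 with the length index, 0.011 with total count, 0.023 without the 8 shallowest libraries, 0.010 without the 3 libraries and -0.027 to 0.010 with each library left out. Hspa5 gave -0.0082 with the length index, -0.025 without the 3 libraries and -0.024 to 0.097 with each left out, Xbp1 -0.014, -0.049 and -0.049 to 0.030 likewise, and Ern1 -0.11 to 0.0093 with each left out. In Aging mPF4 against Young mPF4, Ern1 gave -0.021 to 0.080 with each left out. For Young mPF4 against Young Veh, Pdia4 gave 0.00065 with DESeq2 size factors, 0.00085 with a mean count of at least 50, 0.0022 with only the groups compared, 0.031 with the block, 0.00073 with the choroid plexus score, 0.0059 with the length index, 0.018 without the 8 shallowest libraries, 0.058 without the 2 libraries, 0.027 without the 3 and -0.028 to 0.027 with each left out. In the same comparison Hspa5 gave 0.0040 with the block, 0.087 without the 2 libraries, 0.0048 without the 3 and -0.072 to 0.031 with each left out. Hyou1 gave -0.0085 with the length index, -0.010 without the 8 shallowest libraries, -0.0068 without the 2 and -0.026 to 0.10 with each left out. Ssr1 gave 0.0046 with the length index, 0.057 without the 2, 0.022 without the 3 and -0.092 to 0.060 with each left out. The interaction for Hspa5 was -0.024 without the 2 and -0.029 without the 3.

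In simulated data for Aging Veh against Young Veh (17657 genes), 29 of 67 genes changed by 0.25 on the log2 scale were called, and 64 of 67 changed by 0.5. The changed genes had a mean count of at least 50, so these rates do not cover Derl3 and Pdia5 (351 and 827 reads over 47 libraries). Genes were drawn independently, without the choroid plexus and length index differences of the real libraries.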
